A study of Mus musculus with 8 samples.

Results

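A set of 33 mouse genes of DNA replication and mitosis was examined for acetylation of histone H3 at lysine 27 (H3K27ac), a mark of active promoters and enhancers, in mpkCCD cells. mpkCCD is a mouse line derived from cortical collecting duct epithelium of the kidney, and the cells here were 1 clone of it (clone 11). The genes were taken by name from the 21887 protein-coding genes of the RefSeq annotation of mm10. All 33 were found there. By role they fall into 10 genes that load or activate the replicative helicase, 5 genes of the sliding clamp and of nucleotide supply, 7 genes of S phase entry (Ccne1, Ccne2, Ccna2, Cdk2, E2f1, E2f2 and E2f3) and 11 genes of mitosis. For each gene the span was extended by 10 kb on each side, and the chromatin immunoprecipitation sequencing (ChIP-seq) peaks that overlapped this window were collected.

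The dDAVP group had received 0.1 nM dDAVP, a vasopressin analogue selective for the vasopressin receptor of the collecting duct, for 24 h. The vehicle group had received the carrier alone for 24 h. Both groups had grown to confluence on permeable supports, and both had been held without serum or hormones for 24 h before treatment began. There were 2 experiments, each with 1 dDAVP library and 1 vehicle library, and each library had its own input library. The labels number the experiments and give no further detail on how far they were separate cultures, so any p-value measures only the spread between these libraries, which may be technical. The comparison asks whether the acetylated regions of these genes differed between cells kept with dDAVP and cells kept with vehicle.

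Replication starts with loading of the MCM helicase onto DNA and its later activation, and the helicase then unwinds DNA ahead of polymerases tethered by the PCNA clamp. Entry into S phase depends on cyclin E and cyclin A with Cdk2 and on E2F transcription factors, which drive many of the replication genes. Mitosis depends on cyclin B with Cdk1, on the Aurora and Polo kinases, and on the spindle checkpoint that restrains Cdc20. Promoters of mitotic genes often carry CCAAT boxes, which bind NF-Y, together with the cell cycle genes homology region (CHR), which recruits the DREAM and MuvB complexes. H3K27ac at a promoter marks it as open to transcription and is not by itself a measure of messenger RNA or of cell division.

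The peak lists hold positions, not read counts per gene, so the measures used were whether a peak was called, how wide it was and how many bases of the gene window peaks covered (covered bp). Between 27923780 and 32705755 immunoprecipitated tags had been kept per library. The lists held 37235 peaks (dDAVP) and 39745 peaks (vehicle) in experiment 1, and 20124 peaks (dDAVP) and 29597 peaks (vehicle) in experiment 2. Peaks covered 99.0 Mb (dDAVP) and 104.1 Mb (vehicle) of the genome in experiment 1, but 33.5 Mb (dDAVP) and 56.9 Mb (vehicle) in experiment 2. The dDAVP list of experiment 2 therefore stands apart as the list with the fewest peaks and the least covered sequence, and every comparison below is given for each experiment on its own. A gene end was counted as called at all 12 of 12 collecting duct principal cell markers in all 4 lists, at 1 of 6 proximal tubule markers, and at 0 of 6 fibroblast and endothelial and 0 of 5 leukocyte markers. The principal cell markers were known from earlier results of these data.

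All 33 genes had H3K27ac called at a gene end in all 4 lists, meaning that a peak lay within 1 kb of the first or the last base of the gene. Over all protein-coding genes, 9888 of 21887 (45.2%) met the same rule and 9819 (44.9%) were called in no list. The genes thus carried a called peak with dDAVP and with vehicle in both experiments. Both gene ends were called in all 4 lists at Cdt1, Pcna and Cdk2, and the other 30 genes were called in all 4 lists at 1 end. The share of all genes called at both ends was not computed. Cdt1, Pcna and Cdk2 also have end peaks that hold an end of a neighbouring gene, so these calls need not belong to the listed gene alone. No gene of the set was called with vehicle in both experiments while never with dDAVP, which 0.416% of all genes were, or the reverse, which 0.00457% were.

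**Figure D1:**
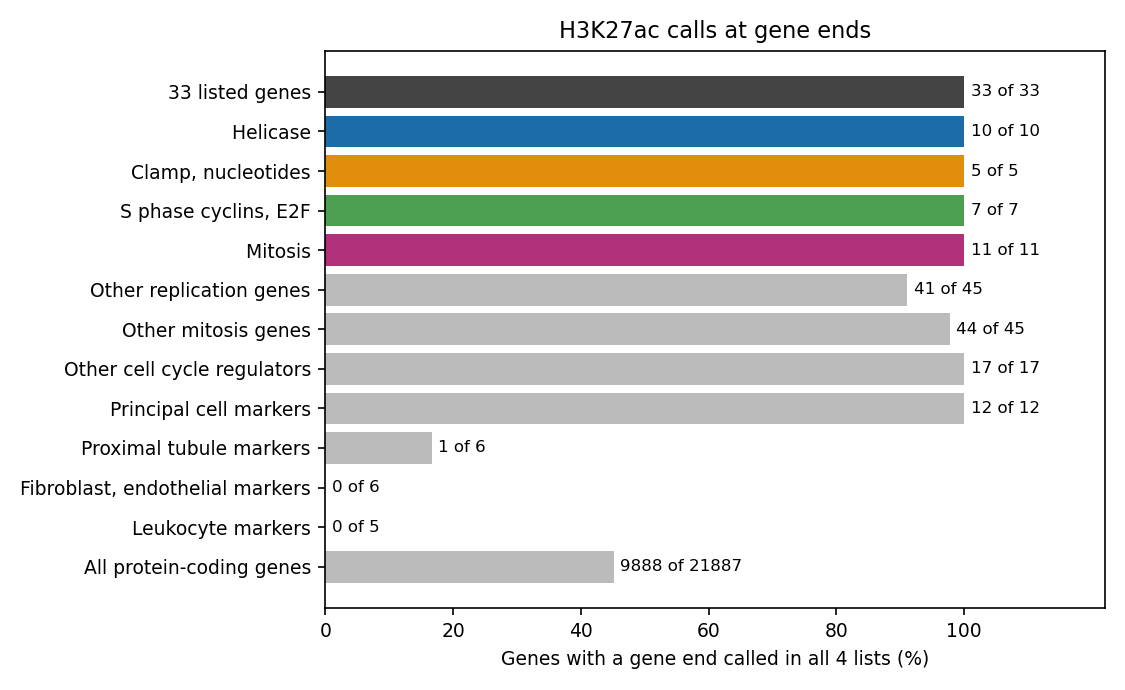
Bars give the percentage of genes, on the horizontal axis, with H3K27ac called at a gene end in all 4 peak lists, for the 33 listed genes, their 4 roles, other cell cycle genes, cell type markers and all protein-coding genes. Each of the 4 roles stands at 100%, against 45.2% of all genes.

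A peak lay at or near the start of transcription of every gene whose start was known. RefSeq promoter entries gave a start for 27 of the 33 genes. All 27 had a start within 1 kb of a peak in all 4 lists, against 8203 of 17492 genes with an entry (46.9%). The start lay inside a peak in all 4 lists at 25 of the 27 genes, against 7031 of 17492 (40.2%). The exceptions were Mcm3 and Bub1b, and in both it was the dDAVP list of experiment 2 in which the peak began just past the start. The Mcm3 peak ran from 11 to 1135 bp after the start in that list, and the Bub1b peak from 133 to 549 bp after it. A second, downstream start of E2f2, an activator E2F, was called in no list, while its first start was called in all 4. For 4 genes, including E2f1 and Cdc6, the first start listed lies more than 100 bp inside the annotated gene (466 bp for E2f1, 442 bp for Cdc6).

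The promoters of these genes were searched for short sequence motifs. The genes were not chosen by motif, but mitotic and replication genes are known for CCAAT, CHR and E2F control, as described above. High shares of these words are thus not independent of the choice of genes. RefSeq sequence from 250 bases before to 50 bases after the start (GRCm38.p6, the assembly of mm10) was searched on both strands. The NF-Y box was taken as CCAAT. The CHR was taken as either TTTGAA or the palindrome TTTAAA. An E2F word was taken as TTTCGCGC or as TTTGGCGC, whose matches may overlap one another on opposite strands. The GC box was taken as GGGCGG. The TATA box was taken as TATAAA. The 27 genes with an entry have 30 such windows, since Mcm7, E2f2 and E2f3 have a pair of starts each. The 250 bases before the start of 8 genes are shown as examples of replication and mitosis promoters. Each reads 5′ to 3′ in the direction of transcription, with every CCAAT, CHR and E2F match, on either strand, in capitals. The examples do not divide cleanly by role. Mcm5 holds a CHR word beside its CCAAT boxes, Pcna holds no E2F word, and Cdk1 holds an E2F word. Mcm5 and Mcm6 code for subunits of the MCM helicase and lie at chr8:75109259-75109508 (plus strand) and chr1:128359706-128359955 (minus strand). Pcna codes for the sliding clamp, at chr2:132253181-132253430 (minus strand).
Mcm5: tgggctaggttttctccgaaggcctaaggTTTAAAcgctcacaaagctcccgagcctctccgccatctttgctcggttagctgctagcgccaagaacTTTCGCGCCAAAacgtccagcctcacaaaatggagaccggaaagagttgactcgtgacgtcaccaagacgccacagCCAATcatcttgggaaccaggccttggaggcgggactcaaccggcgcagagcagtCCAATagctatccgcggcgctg
Mcm6: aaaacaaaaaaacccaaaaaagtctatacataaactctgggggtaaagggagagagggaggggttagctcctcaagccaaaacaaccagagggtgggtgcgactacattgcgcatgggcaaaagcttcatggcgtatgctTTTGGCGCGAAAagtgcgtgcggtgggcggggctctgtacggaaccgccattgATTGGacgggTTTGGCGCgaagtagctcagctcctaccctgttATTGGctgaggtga
Pcna: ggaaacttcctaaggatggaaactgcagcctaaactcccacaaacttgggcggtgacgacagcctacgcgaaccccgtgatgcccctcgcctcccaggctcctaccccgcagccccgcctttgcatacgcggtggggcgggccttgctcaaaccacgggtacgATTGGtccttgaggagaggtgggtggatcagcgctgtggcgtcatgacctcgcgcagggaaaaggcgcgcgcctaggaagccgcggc

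The mitotic examples are Cdk1, the kinase of mitotic entry (chr10:69352913-69353162), its cyclins Ccnb1 (chr13:100786487-100786736) and Ccnb2 (chr9:70421555-70421804), Top2a, the topoisomerase that untangles sister chromosomes (chr11:99024190-99024439), and Mki67, the Ki-67 proliferation antigen (chr7:135716380-135716629), all on the minus strand and with the same use of capitals.
Cdk1: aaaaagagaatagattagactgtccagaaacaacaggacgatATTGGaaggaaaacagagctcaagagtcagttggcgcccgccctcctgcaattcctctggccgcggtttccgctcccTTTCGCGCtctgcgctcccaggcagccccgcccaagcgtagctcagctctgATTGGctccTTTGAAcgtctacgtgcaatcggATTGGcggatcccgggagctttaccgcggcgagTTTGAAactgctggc
Ccnb1: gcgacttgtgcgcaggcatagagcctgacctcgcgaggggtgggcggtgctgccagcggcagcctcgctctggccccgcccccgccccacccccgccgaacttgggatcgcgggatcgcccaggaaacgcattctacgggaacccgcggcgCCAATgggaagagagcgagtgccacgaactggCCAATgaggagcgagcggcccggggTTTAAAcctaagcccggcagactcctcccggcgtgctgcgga
Ccnb2: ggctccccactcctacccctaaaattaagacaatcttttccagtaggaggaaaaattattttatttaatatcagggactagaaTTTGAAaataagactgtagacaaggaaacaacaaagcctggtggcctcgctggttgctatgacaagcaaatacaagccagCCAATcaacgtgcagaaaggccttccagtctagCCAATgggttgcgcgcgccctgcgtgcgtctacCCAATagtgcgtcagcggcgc
Top2a: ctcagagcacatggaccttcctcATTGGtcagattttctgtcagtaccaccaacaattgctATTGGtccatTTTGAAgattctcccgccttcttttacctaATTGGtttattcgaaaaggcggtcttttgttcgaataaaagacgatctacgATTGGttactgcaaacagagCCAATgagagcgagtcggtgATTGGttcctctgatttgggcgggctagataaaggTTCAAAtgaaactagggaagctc
Mki67: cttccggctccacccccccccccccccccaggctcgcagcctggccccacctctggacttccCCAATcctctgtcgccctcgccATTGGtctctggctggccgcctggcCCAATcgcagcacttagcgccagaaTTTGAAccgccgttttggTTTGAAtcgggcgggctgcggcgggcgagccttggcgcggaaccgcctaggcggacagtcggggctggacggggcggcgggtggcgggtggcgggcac

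CCAAT boxes were in 23 of the 30 windows (76.7%), including all 10 windows of mitosis genes. The same word was in 38.2% of all 21263 promoter windows and in 38.2% of the 8272 windows whose start lay inside a peak in all 4 lists. A CHR word was in 16 of 30 windows (53.3%), against 17.2% of windows with an acetylated start and 25% of all windows. In mitosis genes 9 of 10 windows held a CHR word, and the exception was Bub1, a spindle checkpoint kinase. Both a CCAAT box and a CHR word were found in 9 of 10 windows of mitosis genes and in 5 of the 20 windows of the other roles, against 7.12% of windows with an acetylated start. The 30 windows include 3 whose start did not lie inside a peak in all 4 lists, those of Mcm3, Bub1b and the second E2f2 start. Over the other 27 windows a CCAAT box was in 20 (74.1%), a CHR word in 14 (51.9%) and an E2F word in 6 (22.2%), a count made after seeing the data. In the Ccnb1 sequence the order is plain, with CCAAT at positions −99 to −95 and −67 to −63 from the start and TTTAAA at −42 to −37.

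The E2F words showed another distribution. They were in 7 of 30 windows (23.3%), against 1.99% of windows with an acetylated start and 1.05% of all windows. Of the 8 windows of helicase genes 5 held one, those of Mcm3, Mcm5, Mcm6, Cdt1 and 1 start of Mcm7, while E2f2 and Cdk1 held the other two. In Mcm5 and Mcm6 a pair of words overlaps on opposite strands, at positions −153 to −142 from the start of Mcm5 and −110 to −99 from that of Mcm6, and Mcm6 has a further word at −47 to −40. In Mcm3, Mcm7, Cdt1 and E2f2 the word lies just after the start, so it is not in the 250 bases before it. GC boxes were in 24 of 30 windows (80%), against 69.0% of windows with an acetylated start. TATA boxes were in none of the 30 windows, against 5.72% of windows with an acetylated start. A match shows only that these letters are in the window. Median G+C content was 57.7% in the 30 windows and 62.3% in windows with an acetylated start, and base composition alters how often each word occurs.

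**Figure D2:**
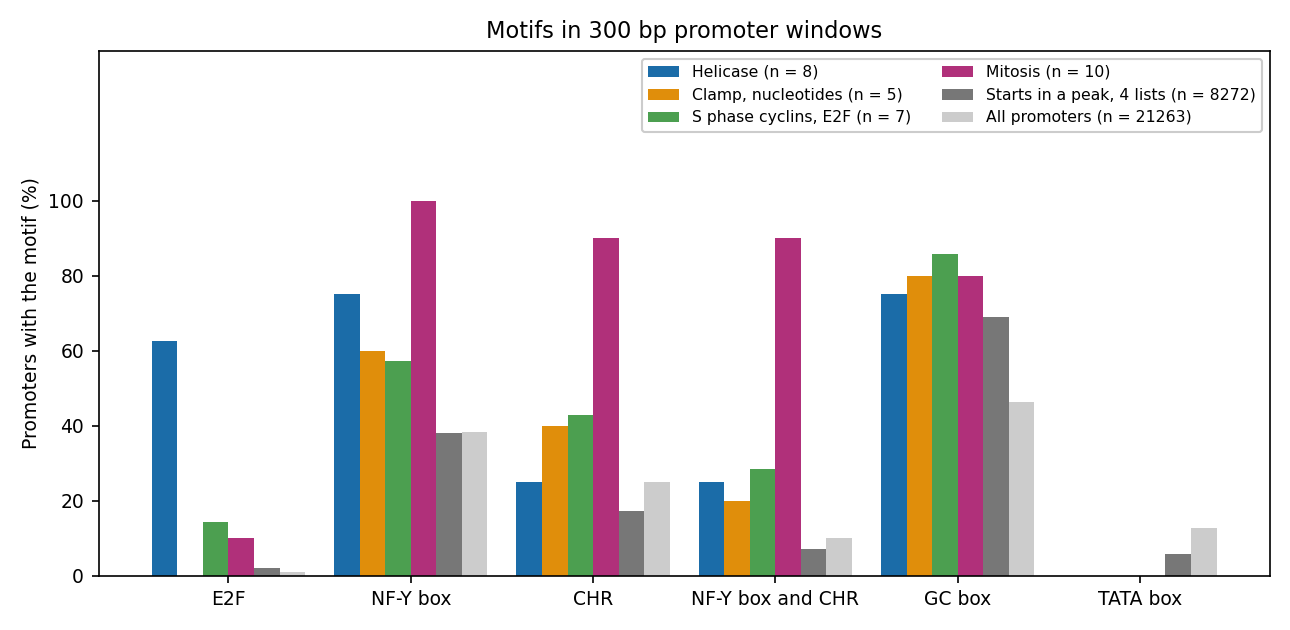
Bars give the percentage of 300 bp promoter windows, on the vertical axis, that hold each motif on the horizontal axis, by role and for both backgrounds. All 10 windows of mitosis genes hold a CCAAT box and 9 of 10 also hold a CHR word, while E2F words are in 5 of 8 windows of helicase genes.

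By the median, the peaks at these starts ran further into the gene than typical acetylated starts in experiment 1, though S phase starts hardly differed with vehicle. Over the 27 starts inside a peak in all 4 lists, which lie under 25 distinct peaks, the median peak was 4156 bp wide with dDAVP and 3939 bp with vehicle in experiment 1, and 1776 bp (dDAVP) and 1983 bp (vehicle) in experiment 2. Over all 8272 such starts the medians were 3051 bp (dDAVP) and 3062 bp (vehicle) in experiment 1 and 1547.5 bp (dDAVP) and 1910 bp (vehicle) in experiment 2. Counted once per distinct peak, the medians of the set were 4083 bp (dDAVP) and 3832 bp (vehicle) in experiment 1. They were 1550 bp (dDAVP) and 1951 bp (vehicle) in experiment 2. Over the 6388 distinct peaks of all such starts they were 2975 bp (dDAVP) and 2973.5 bp (vehicle), and 1500 bp (dDAVP) and 1861 bp (vehicle). The median extent downstream of the start was 2901 bp with dDAVP and 2339 bp with vehicle in experiment 1, against 1590 bp (dDAVP) and 1557.5 bp (vehicle) over all such starts. In experiment 2 it was 894 bp with dDAVP and 1032 bp with vehicle, against 785 bp (dDAVP) and 956 bp (vehicle). With vehicle in experiment 1 the medians by role were 3278 bp (helicase), 4639 bp (clamp and nucleotide), 1562.5 bp (S phase) and 1832 bp (mitosis). With dDAVP in experiment 1 the lowest median by role was 2262.5 bp, also at S phase starts. The authors' fold enrichment ranks these peaks high within each list, with a median percentile of 90.4 (dDAVP) and 90.7 (vehicle) in experiment 1 and 85.1 (dDAVP) and 90.4 (vehicle) in experiment 2. Over all acetylated starts the median percentiles were 88.9 (dDAVP) and 89.5 (vehicle) in experiment 1 and 76.7 (dDAVP) and 84.2 (vehicle) in experiment 2. Per distinct peak, those of the set were 90.4 (dDAVP) and 88.8 (vehicle), and 84.5 (dDAVP) and 90.3 (vehicle). Those of all starts were 88.2 (dDAVP) and 88.7 (vehicle), and 75.1 (dDAVP) and 83.3 (vehicle). With vehicle in experiment 1 the set was thus level with all starts.

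**Figure D3:**
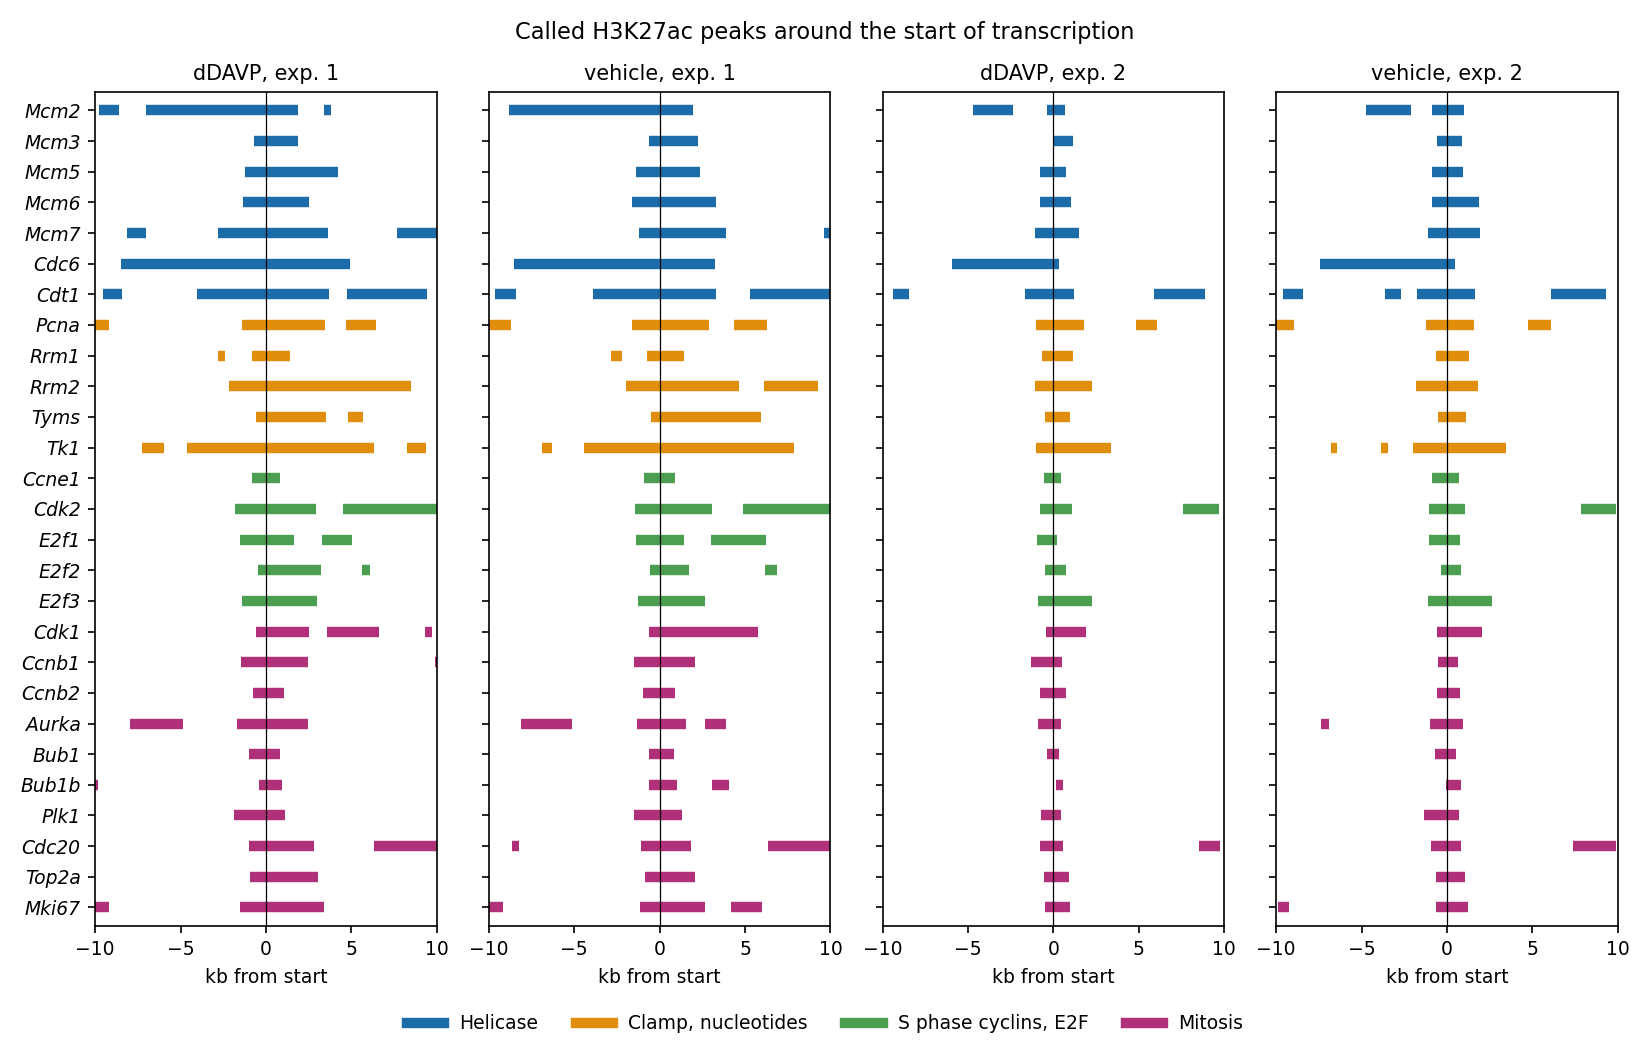
Horizontal bars mark the called H3K27ac peaks from 10 kb before to 10 kb after the first listed start of transcription (vertical line, direction of transcription to the right) of 27 genes, with 1 panel per peak list and colours for role. A peak at or within 1 kb of a start is present in all 4 lists for all 27 genes, beginning just past the start of Mcm3 and Bub1b with dDAVP in experiment 2, and it is shorter in both lists of experiment 2 than in the list of the same treatment in experiment 1, and the shortest is that of Bub1b with dDAVP in experiment 2, 417 bp long.

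Of the 4 roles, the start peaks of helicase genes had the highest median rank in each list. Their median percentile by fold enrichment within the list was 92.7 (dDAVP) and 93.4 (vehicle) in experiment 1 and 95.4 (dDAVP) and 97.0 (vehicle) in experiment 2, over 7 starts. The 7 starts lie under 6 peaks, since both starts of Mcm7 are under the same one. For the 9 mitosis starts it was 77.9 (dDAVP) and 82.9 (vehicle), and 73.3 (dDAVP) and 85.8 (vehicle), in the same order of experiments. Among the end peaks of the 33 genes, Mcm4, an MCM subunit, had the highest fold enrichment in each of the 4 lists, 12.5 (dDAVP) and 10.5 (vehicle) in experiment 1 and 11.1 (dDAVP) and 11.9 (vehicle) in experiment 2. The lowest was that of Ccne1 in experiment 1, 3.72 (dDAVP) and 4.11 (vehicle), and that of Bub1 in experiment 2, 2.64 (dDAVP) and 3.73 (vehicle). These fold values are the authors' own and describe peaks within their list. Where only peaks of at least 5-fold enrichment were kept, a gene end was still called in all 4 lists at 9 of 10 helicase genes, 5 of 5 clamp and nucleotide genes, 5 of 7 S phase genes and 4 of 11 mitosis genes, against 21.9% of all genes.

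The end peak width of a gene in a list is that of the widest peak within 1 kb of either gene end. Among the helicase genes the widest end peak was at Cdc6, whose product loads the MCM ring at origins (chr11:98907709-98923942). It was 13460 bp (dDAVP) and 11820 bp (vehicle) in experiment 1, and 6255 bp (dDAVP) and 7896 bp (vehicle) in experiment 2. This peak also reached an end of the neighbouring gene Wipf2 in all 4 lists. Gins1, a subunit of the GINS part of the active helicase (chr2:150909556-150931280), had 1 of the 3 narrowest end peaks by the mean over lists, at 2129 bp (dDAVP) and 2500 bp (vehicle) in experiment 1 and 908 bp (dDAVP) and 1064 bp (vehicle) in experiment 2. Mcm2, another MCM subunit, had in experiment 1 a single block of acetylation of 8912 bp (dDAVP) and 10816 bp (vehicle) across its start. With both treatments this block also held an end of the neighbouring gene Tpra1, so it need not belong to Mcm2 alone. In both lists of experiment 2 that block was called as separate peaks, an upstream piece and a piece over the start.

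Of the clamp and nucleotide genes, Rrm2, the small subunit of ribonucleotide reductase (chr12:24708254-24714146), had peaks over most of its body in experiment 1 only. Peaks covered 100% (dDAVP) and 78.7% (vehicle) of the Rrm2 span in experiment 1, and 38.7% (dDAVP) and 30.8% (vehicle) in experiment 2. Its end peak was 10628 bp (dDAVP) and 6597 bp (vehicle) in experiment 1, and 3370 bp (dDAVP) and 3634 bp (vehicle) in experiment 2. Tk1, the cytosolic thymidine kinase (chr11:117815519-117826087), had end peaks of 11001 bp (dDAVP) and 12265 bp (vehicle), and 4411 bp (dDAVP) and 5472 bp (vehicle), in the same order. At Pcna (chr2:132249286-132253180) the end peak was 4882 bp (dDAVP) and 4476 bp (vehicle) in experiment 1 and 2833 bp (dDAVP) and 2780 bp (vehicle) in experiment 2. Peaks covered 89.5% (dDAVP) and 73.8% (vehicle) of the Pcna span in experiment 1, and 46.2% (dDAVP) and 40.4% (vehicle) in experiment 2. The Pcna and Tk1 peaks each reach an end of a neighbour, Cds2 and Afmid, in all 4 lists.

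Narrow peaks were found in the other roles. Ccne1, cyclin E1 (chr7:38097984-38107490), had a single peak in its window in each list, of 1618 bp (dDAVP) and 1804 bp (vehicle) in experiment 1 and 974 bp (dDAVP) and 1574 bp (vehicle) in experiment 2. Bub1 (chr2:127800197-127831859) had end peaks of 1794 bp (dDAVP) and 1438 bp (vehicle), and 728 bp (dDAVP) and 1268 bp (vehicle). In the dDAVP list of experiment 2 the Bub1 peak stood at percentile 2.97 of that list by fold enrichment.

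With dDAVP against vehicle, these genes were split almost evenly between more and less covered sequence in experiment 1, and nearly all had less in experiment 2, as did genes at large. Shares of covered genes are shares of the 12558 protein-coding genes with covered bp in all 4 lists. Covered bp was lower with dDAVP at 17 of 33 genes and higher at 16 in experiment 1, against 53.3% of covered genes lower. In experiment 2 it was lower at 31 of 33 genes and higher at 2, Ccnb1 and Ccnb2, against 95.2% of covered genes lower. Over the 33 genes, peaks covered 236025 bp with dDAVP and 237660 bp with vehicle in experiment 1 (ratio 0.993), and 84172 bp with dDAVP and 116068 bp with vehicle in experiment 2 (ratio 0.725). Over the whole genome the ratio of covered sequence was 0.951 in experiment 1 and 0.590 in experiment 2, and the part of this genome-wide difference in the values of single genes was not tested. The median log2 ratio of covered bp, dDAVP over vehicle, was −0.04 in experiment 1 and −0.37 in experiment 2, against −0.02 and −0.49 over the covered genes. The sign of the experiment 1 median is not fixed, since it was positive, between 0.04 and 0.14, under 4 other settings, among them the gene span alone.

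Less covered bp with dDAVP in both experiments was found at 16 of the 33 genes, which is 48.5%, against 51.4% of covered genes. More in both was found at 1 gene, Ccnb1, against 2.84% of covered genes, and 16 genes went opposite ways. The widest peak was narrower with dDAVP at 16 genes in experiment 1 (51.8% of covered genes) and at 28 in experiment 2 (92% of covered genes). It was narrower in both experiments at 15 genes (48.4% of covered genes) and wider in both at 3, Pcna, E2f2 and Ccnb1 (4.49% of covered genes). At no gene did both dDAVP values lie to one side of both vehicle values, against 5.77% of covered genes. With 2 lists per treatment the smallest two-sided exact permutation p is 0.333, so no gene could pass 0.05. The exact permutation p of covered bp was 0.667 for the 17 genes that moved one way in both experiments and 1 for the other 16.

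By role, less covered bp with dDAVP in both experiments was found at 7 of 10 helicase genes, 4 of 5 clamp and nucleotide genes, 3 of 7 S phase genes and 2 of 11 mitosis genes. The share of covered genes was 51.4%. These are counts of small groups, and the difference between roles was not tested. In experiment 1 covered bp was lower with dDAVP at 7 of 10 helicase genes and at 3 of 11 mitosis genes, against 53.3% of covered genes. In experiment 2 it was lower at all 10 helicase genes and at 9 of 11 mitosis genes, against 95.2% of covered genes. The mitosis median log2 ratio was 0.05 in experiment 1 and −0.75 in experiment 2, and the helicase median was −0.09 and −0.38. The mitosis genes thus had the lowest median of the 4 roles in experiment 2 and not in experiment 1.

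**Figure D4:**
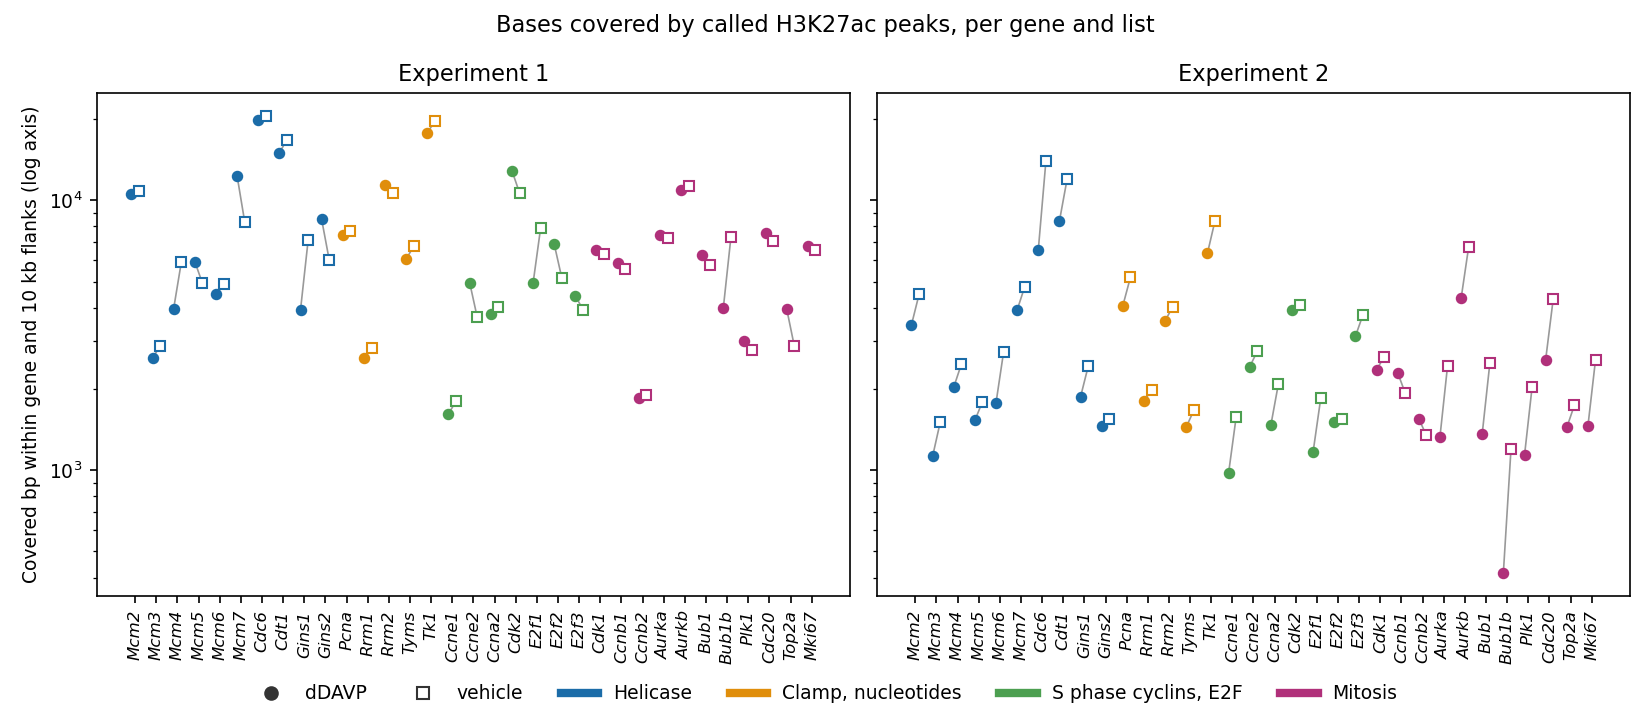
Points give the covered bp of each gene window on a log axis, with dDAVP as filled circles left of vehicle as open squares, 1 panel per experiment and colours for role. In experiment 1 the dDAVP point is the lower of the pair for 17 genes and the higher for 16, while 31 of 33 dDAVP points lie below vehicle in experiment 2.

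The lowest ratios shared by both experiments were those of Bub1b, the BubR1 protein of the spindle checkpoint (chr2:118598202-118641592). Covered bp at Bub1b was 3993 (dDAVP) and 7303 (vehicle) in experiment 1, and 417 (dDAVP) and 1194 (vehicle) in experiment 2. The ratios were 0.547 and 0.349, and the dDAVP value of experiment 2 was the lowest of the 33 genes in any of the 4 lists. Means were 2205 ± 2529 bp with dDAVP and 4248.5 ± 4320 bp with vehicle (SD, n = 2 each), and the treatments overlapped. In experiment 1 the peak at the Bub1b start was 1343 bp (dDAVP) and 1657 bp (vehicle), so most of the difference lay in other peaks of the window. With vehicle these included a peak of 4375 bp at the other gene end. That peak keeps Bub1b out of the 3 narrowest end peaks, though its peak at or just past the start was narrower than the Gins1 end peak in every list.

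At E2f1 (chr2:154559400-154569892), an activator of S phase genes, covered sequence was 4927 bp (dDAVP) and 7914 bp (vehicle) in experiment 1, and 1169 bp (dDAVP) and 1845 bp (vehicle) in experiment 2. The dDAVP value was the lower in each experiment, and both values of experiment 1 were above both of experiment 2. The ratio was 0.623 in experiment 1 and 0.634 in experiment 2, and the means were 3048 ± 2657 bp with dDAVP and 4879.5 ± 4291 bp with vehicle (SD, n = 2 each). The end peak of E2f1 itself was 3154 bp (dDAVP) and 2802 bp (vehicle) in experiment 1, so the smaller sum in that experiment came from the other peaks of the window. In experiment 2 the end peak was the whole of the covered sequence in both lists. Gins1 had 3928 bp (dDAVP) and 7107 bp (vehicle) in experiment 1, and 1871 bp (dDAVP) and 2425 bp (vehicle) in experiment 2, ratios of 0.553 and 0.772. Its end peak was 2129 bp (dDAVP) and 2500 bp (vehicle), and 908 bp (dDAVP) and 1064 bp (vehicle). Most of the Gins1 difference in each experiment thus lay in other peaks of the window.

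Ccnb1, cyclin B1 (chr13:100778739-100786486), was the gene with more covered bp with dDAVP in both experiments. It had 5855 bp (dDAVP) and 5553 bp (vehicle) in experiment 1, and 2298 bp (dDAVP) and 1928 bp (vehicle) in experiment 2, ratios of 1.05 and 1.19. Its end peak was 3942 bp (dDAVP) and 3580 bp (vehicle), and 1811 bp (dDAVP) and 1189 bp (vehicle). Means were 4076.5 ± 2515 bp with dDAVP and 3740.5 ± 2563 bp with vehicle (SD, n = 2 each), so the treatments overlapped. Where peaks had to reach 5-fold enrichment or a −log10 q of 5, no gene of the set had more covered bp with dDAVP in both experiments. The shares of genes covered at those settings were 4.07% and 3.51%.

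At Cdk1 (chr10:69335146-69352912) covered sequence was 6545 bp (dDAVP) and 6336 bp (vehicle) in experiment 1, and 2358 bp (dDAVP) and 2628 bp (vehicle) in experiment 2. At Top2a (chr11:98992947-99024199) it was 3951 bp (dDAVP) and 2880 bp (vehicle), and 1440 bp (dDAVP) and 1742 bp (vehicle). At Mki67 (chr7:135689784-135716450) it was 6770 bp (dDAVP) and 6532 bp (vehicle), and 1459 bp (dDAVP) and 2569 bp (vehicle). These 3 genes went opposite ways, higher with dDAVP in experiment 1 and lower in experiment 2. At Pcna it was 7448 bp (dDAVP) and 7688 bp (vehicle), and 4071 bp (dDAVP) and 5189 bp (vehicle), in the same order of experiments, lower with dDAVP in both. Cdc6 had 19773 bp (dDAVP) and 20480 bp (vehicle) in experiment 1, and 6544 bp (dDAVP) and 13964 bp (vehicle) in experiment 2, a ratio near 1 in the first experiment and 0.469 in the second.

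**Figure D5:**
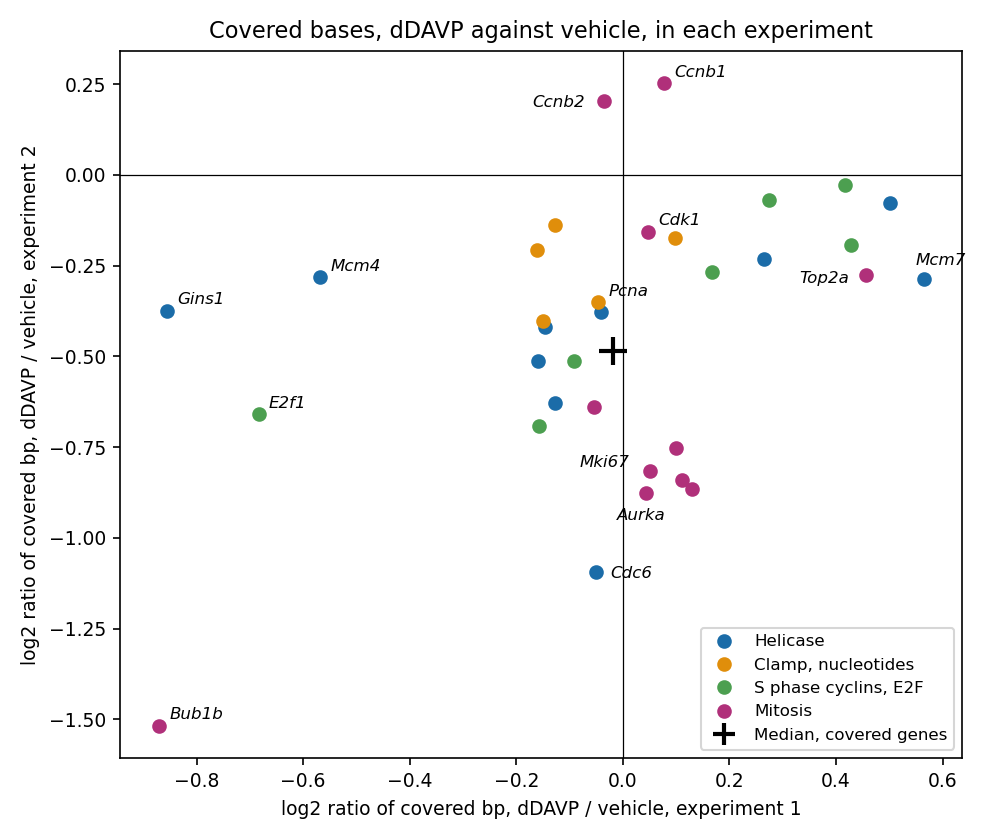
Each point is a gene, with the log2 ratio of covered bp, dDAVP over vehicle, in experiment 1 on the horizontal axis and in experiment 2 on the vertical axis, colours for role, and a cross at the median of covered genes (−0.02, −0.49). Points spread to both sides of 0 in experiment 1 and lie below 0 in experiment 2 for 31 of 33 genes, and Ccnb1 is the gene above 0 in both.

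At the start of transcription itself the direction was not the same in both experiments. The peak over the start was narrower with dDAVP at 7 of 27 starts and wider at 20 in experiment 1, against 51.1% narrower over all 8272 starts. In experiment 2 it was narrower at 23 and wider at 4, against 90.7% narrower. Both experiments together gave 6 starts narrower in both, against 46.9% over all starts, and 3 wider in both, against 420 of 8272 over all starts. Both starts of Mcm7 and both of E2f3 lie under the same peak, so the 27 starts are 25 distinct peaks. Counted once each, 7 peaks were narrower and 18 wider with dDAVP in experiment 1, and 21 were narrower and 4 wider in experiment 2. Over the 6388 distinct peaks of all starts, 51.4% were narrower in experiment 1 and 90.7% in experiment 2. Over the 27 starts, median log2 ratios of width were 0.17 in experiment 1 and −0.27 in experiment 2, against −0.01 and −0.27 over all starts. Over the 25 distinct peaks they were 0.14 and −0.27, against −0.01 and −0.29 over the distinct peaks of all starts. Whether this lean towards wider start peaks in experiment 1 exceeds the spread between libraries could not be tested with 1 library per treatment and experiment.

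Covered bp differed more between the experiments than between the treatments. All 33 genes had more covered bp in experiment 1 than in experiment 2 with dDAVP (median ratio 2.78, from 1.19 to 9.58) and with vehicle (median ratio 2.31, from 1.04 to 6.12). The medians over the covered genes were 2.54 with dDAVP and 1.71 with vehicle. Lists of experiment 2 also had fewer peaks genome-wide, and the part of that in these ratios was not tested.

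Some end peaks reach a neighbour, which limits what can be given to the listed gene alone. The end peak held an end of another gene in all 4 lists at 8 genes: Aurka with Cstf1, Cdc6 with Wipf2, Cdk2 with Pmel and Rab5b, Cdt1 with Aprt, Mcm4 with Prkdc, Mcm7 with Ap4m1, Pcna with Cds2 and Tk1 with Afmid. The median end peak of these 8 genes was 7065.5 bp (dDAVP) and 5237 bp (vehicle) in experiment 1, and 2719 bp (dDAVP) and 2911 bp (vehicle) in experiment 2. In the other 25 genes it was 3179 bp (dDAVP) and 2954 bp (vehicle), and 1446 bp (dDAVP) and 1786 bp (vehicle). These 25 include Mcm2, whose end peak held an end of Tpra1 in 2 lists, and Ccna2, with Exosc9 in 1 list. Covered bp was lower with dDAVP in both experiments at 5 of the 8 and at 11 of the 25, against 51.4% of covered genes.

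Most other genes of the pathway were called as well. Of 107 other cell cycle genes, 102 had a gene end called in all 4 lists, against 45.2% of all genes. These were 41 of 45 other replication genes, 44 of 45 other mitosis genes and 17 of 17 other transcription regulators of the cell cycle. Of the 88 with a RefSeq start, 84 had a start within 1 kb of a peak in all 4 lists, against 46.9% of genes with an entry. Kif2c and Timeless were called at a gene end in all 4 lists. The Kif2c start was called in no list, however, and the Timeless start in neither list of experiment 2. Orc1, Orc4 and Rfc1 were called at no gene end in any list and Lig1 was missed in the dDAVP list of experiment 2, yet the RefSeq start of each was called in all 4 lists, and their annotated spans extend past that start. Ttk, the Mps1 checkpoint kinase, had 1526 bp (dDAVP) and 1782 bp (vehicle) covered in experiment 1, and 0 bp (dDAVP) and 1248 bp (vehicle) in experiment 2. Its start of transcription was missed in the same list. Covered bp was lower with dDAVP in both experiments at 22 of 45 replication genes, 22 of 44 mitosis genes and 9 of 17 regulators, against 51.4% of covered genes. It was higher in both at 0, 1 and 0 of them, against 2.84% of covered genes.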

How the data were processed

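H3K27ac ChIP-seq of mpkCCD cells was read from 4 peak lists, 1 per immunoprecipitated library, grouped by the treatment and experiment number of the labels. The submitters' processing notes name BWA, SAMtools and the mm10 build. Peaks were called by the authors with MACS 2.1.1.20160309 in broad mode (q limits of 0.01 for strong and 0.1 for broad regions, at most 1 tag kept per position), each library against its own matched input and without pooling, per the file headers. The deposited lists give each peak's pileup (a coverage signal), fold enrichment (a ratio to local background), and −log10 p and −log10 q, the names of these last columns having been lost. These are the authors' own values and were compared only among peaks of the same list. The lists were attached to the input records, and the immunoprecipitated library was taken from the header and matched to its title. Peak names in both lists of experiment 2 carry another experiment number than the labels.

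From the lists, peaks on the 19 autosomes, X and Y were kept (other scaffolds held 22 dDAVP and 11 vehicle peaks in experiment 1, and 5 and 12 in experiment 2). A gene end was called when a peak lay within 1 kb of it. Covered bp is the number of bases under peaks (minimum overlap 1 bp) in the gene span plus 10 kb. Gene positions and promoters came from RefSeq (GRCm38.p6), with promoter entries for 27 of 33 genes. Single genes were compared with exact two-sided permutation tests over the lists, and lists of genes by counts beside those of all genes, without a test. A peak call depends on depth, background and the q limit, and a missing call is not an absence of the mark. Libraries were not scaled to each other, and intervals were not computed because counts per gene were not used here.

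The 33 genes, the other lists and the tests were chosen with earlier results of these data known. All 33 genes may be named. Those given in every list are the 3 widest and 3 narrowest end peaks, the 3 lowest ratios and any higher ones shared by both experiments, and Mki67, Top2a, Pcna, Ccnb1, Cdk1 and E2f1. Further genes named as examples were chosen after their values were seen. Alternatives were a stricter q or fold limit, equal list lengths or covered bases, other windows and overlaps, and leaving out each library. The motif shares over starts inside a peak, and the counts and medians over distinct start peaks, were added after seeing the data. The experiment number in the titles pairs a dDAVP with a vehicle library, and all 33 genes had more covered bp in experiment 1 with both treatments. The counting was checked on simulated peaks. Python 3.11.15, pandas 2.3.3, numpy 2.4.6 and matplotlib 3.10.9 were used.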

Additional observations from a re-analysis of the deposited data

How the results depend on the processing

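All 33 genes were still called in all 4 lists at equal list length (44.4% of all genes) and at equal list length within each experiment (44.8%). The same held with 500 bp in place of 1 kb around a gene end. A wider flank of 2500 bp, or leaving out 1 library, cannot lose a call made in all 4 lists, so their counts (33 to 33) say nothing about stability. The count was 29 at a −log10 q of at least 5 (36.2% of all genes), 23 at a fold of at least 5 (21.9%) and 22 at equal covered bases (28.5%). It was 32 where 500 bp of the gene-end window had to be covered. The share of all genes was not computed for the settings of 500 bp. The genes lost at the q limit were Bub1b, Bub1, Ccne1 and Plk1. The median log2 ratio in experiment 1 changed sign to 0.043 at equal list length within each experiment, 0.14 at equal covered bases, 0.043 over the gene span alone and 0.060 with a 5 kb flank, and the cause was not tested. In experiment 2 it stayed between −0.27 and −0.38 under the alternatives run.

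The number of genes with more covered bp with dDAVP in both experiments was 1 as reported, against 2.84% of covered genes. It was 0 at the stricter q limit (3.51% of genes covered at that setting) and 0 at the stricter fold limit (4.07%). It was 2 at equal list length (4.81%), 2 at equal list length within each experiment (5.01%) and 1 at equal covered bases (12.7%). Over the gene span alone it was 5, and over peaks at gene ends only, a setting chosen after seeing the data, it was 2. The share of all genes was not computed for these last settings. Leaving out 1 library leaves 1 complete experiment, so genes with less covered bp ranged from 17 to 31, those with more from 2 to 16, and those with a narrower widest peak from 16 to 28. The 31 were found without either library of experiment 1, and the 17 without either library of experiment 2. With the experiment number as a replicate block, a paired exact permutation p cannot go below 0.5, and it was 0.5 for 17 genes and 1 for 16, so the block changed no call. Without counts per region, a difference in acetylation level within a called peak was not detectable.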

Other observations

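A single peak was called in the window of 19 of 33 genes with dDAVP and of 16 with vehicle in experiment 2, and of 7 genes with dDAVP and 10 with vehicle in experiment 1. The share over all genes was not computed, and the lists of experiment 2 held fewer peaks genome-wide, so these counts are not particular to the listed genes. The promoter windows held a median of 24 CG dinucleotides, against 23 in windows with an acetylated start and 13 in all promoter windows.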
